A study of Mus musculus with 8 samples.

Results

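The transcripts of 33 mouse genes that encode chromatin remodelling ATPases and the subunits that work with them were examined for RNA binding by MBD5 and MBD6 in mouse embryonic stem (mES) cells. Members were the peaks whose midpoint lay in the body of a listed gene of the CHD, SWI/SNF, ISWI, INO80/SWR1 or other SNF2 families, on the same strand, in the GENCODE vM21 annotation of mouse genome build mm10. These genes held 688 of 29555 peaks (2.33%), and they are 33 of 21866 annotated protein-coding genes. CLIP-seq, in which RNA is crosslinked to protein by ultraviolet light, immunoprecipitated and sequenced, was performed on wild-type mES cells that stably carried a vector for the human coding sequence of MBD5 or of MBD6 with a Flag tag. Both lines were therefore overexpression lines on the same background, selected with hygromycin and grown with LIF, CHIR99021 and PD0325901, and no untagged line was used here. Each protein had 2 CLIP libraries and 2 input libraries. The peak lists of the 4 CLIP libraries were analysed. The input libraries were not used here beyond any part they had in the authors' peak calls. The labels name the cells as mES cells in the cell line field and as embryos in the source field. A Flag antibody is given by the study's methods and by the sample characteristics, and an antibody against MBD6 by the extraction protocol in the labels.

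Chromatin remodellers use the energy of ATP to slide, evict or exchange nucleosomes. They fall into families by their SNF2-type ATPase: the CHD family, which includes the ATPase of the NuRD repressor complex, the SWI/SNF (BAF and PBAF) complexes, the ISWI complexes that space nucleosomes, and the INO80 and SWR1-type complexes that handle the histone variant H2A.Z. In mES cells the BAF complex is built on SMARCA4 rather than SMARCA2, and it takes part in keeping the cells pluripotent. MBD5 and MBD6 are proteins with a methyl-CpG-binding domain that associate with the PR-DUB complex, which removes ubiquitin from histone H2A.

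The Flag-MBD5 lists held 5362 and 5388 peaks, and the Flag-MBD6 lists 9218 and 9587. Reads behind them were estimated from the lists at 478790 to 500143 per Flag-MBD5 library and 983918 to 1111742 per Flag-MBD6 library, a depth ratio of 2.14 between the proteins. At the 96 sites in member genes that had a peak in all 4 libraries, replicates gave a chi-square per degree of freedom of 0.641 (Flag-MBD5) and 0.682 (Flag-MBD6), below the value of 1 that independent sampling gives, against 2.64 to 2.89 between libraries of different proteins. Replicates thus differed by less than sampling noise, so each protein was counted as 1 sample and both library values are given with no standard deviation and no p-value. Depth and protein cannot be told apart in counts of peaks. A gene with more RNA also cannot be told apart from a gene whose RNA was bound more often. Transcript levels were not used here, except for any input signal already in the local background of the deposited peaks. Of 12 stem cell markers 10 had a peak in any library, of 9 markers of other early embryo cells 0 had one, and of 5 feeder fibroblast markers 1, Vim, had one. Over all protein-coding genes, 4242 of 21866 had a peak in any library. Overlapping peaks in both libraries of a protein were found in 4 of the 12 stem cell markers for Flag-MBD5 and in 7 for Flag-MBD6, and in no other marker.

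The sequences below open the 10 strongest sites in coding sequence, by mean rank of fold enrichment over the 4 libraries with at most 2 sites per gene. Fold enrichment is the deposited ratio of the signal at a peak's summit to its local background. The study's methods do not state whether the input libraries supplied that background. Each line gives the 30 nt that start at the 5′ end of the peak, which approximates the end left by RNase T1 cleavage after G, read from GENCODE vM21 transcripts (mm10). Capitals mark whole in-frame codons for aspartate, glutamate or lysine.
Atrx, chrX:105851239-105851268, minus strand: ccattctGAGGAGGACAAGAAGGAAggtga
Chd4, chr6:125105205-125105234, plus strand: aaactaccagcggAAGaatGATatgGACga
Bptf, chr11:107131481-107131510, minus strand: accacGAGagtGACGACGACGACGAGGAGg
Chd4, chr6:125100841-125100870, plus strand: GAGGAAGAGgtggctctgcgctcaGACagt
Bptf, chr11:107095874-107095903, minus strand: aatcAAAcgagggGAAGATattGACtgtga
Smarcc1, chr9:110173886-110173915, plus strand: ctagcctttatgggAAAcgtagaagtcaga
Baz1b, chr5:135217704-135217733, plus strand: caGAAGACtatggaGAActgggaatgAAGc
Atrx, chrX:105867888-105867917, minus strand: aagccttatctAAAtcagtgcctgccacag
Baz2a, chr10:128118960-128118989, plus strand: aaacAAGaggAAGcaaGACaccAAGagctt
Chd6, chr2:161052782-161052811, minus strand: atcagggaGAGaacattGAAGAAgctgcca

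All 10 were preceded by G in the transcript. Between 1 and 7 codons of each stretch encoded aspartate, glutamate or lysine, 37 of 91 in all (40.7%). The stretch in exon 1 of Bptf was the densest, with 7 of 9 such codons, and the strongest Atrx stretch had 6 of 9. The second Atrx stretch and the Smarcc1 stretch had 1 each, so a strong site did not always open on such codons.

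Most of the 33 transcripts were bound. A reproducible region, defined as merged peaks present in both libraries of a protein, was found in 24 members for Flag-MBD5 and in 29 for Flag-MBD6. Over all protein-coding genes the shares with a region were 7.81% and 13.8%. Because the members are long genes, 29 of them with coding sequences of at least 3000 nt, the closer background is protein-coding genes of that length, of which 21.1% had a Flag-MBD5 region and 34.5% a Flag-MBD6 region. Of the 29 long members, 23 had a Flag-MBD5 region and 26 a Flag-MBD6 region. A peak in each of the 4 libraries was found in 24 members, 23 of them long, against 7.81% of all protein-coding genes and 21.6% of the long ones. The members were chosen with earlier results of these data known, and transcript levels were not used, so these contrasts are descriptive only. Smarca1 was the only member with no peak in any library.

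The libraries held 135, 136, 202 and 215 peaks in member genes, in the order Flag-MBD5 replicates 1 and 2 and Flag-MBD6 replicates 1 and 2, which is the order of all values given below for the 4 libraries. These were 2.52%, 2.52%, 2.19% and 2.24% of each library's peaks. Per kb of coding sequence, the median over the 33 members was 0.52, 0.61, 0.98 and 1.07 peaks. Among the 32 members with a peak the medians were 0.54, 0.61, 0.99 and 1.11, and among the 1030 long protein-coding genes with a peak they were 0.21, 0.20, 0.46 and 0.49. Members' peaks also had a higher median fold enrichment, 11.5, 12, 15.1 and 13.2, against 10.4, 10.5, 10.9 and 11.1 for all peaks. Of the Flag-MBD6 member peaks, 22.3% and 23.3% were among the best 10% of their library by fold enrichment, and of the Flag-MBD5 member peaks 14.1% and 12.5%.

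**Figure D1:**
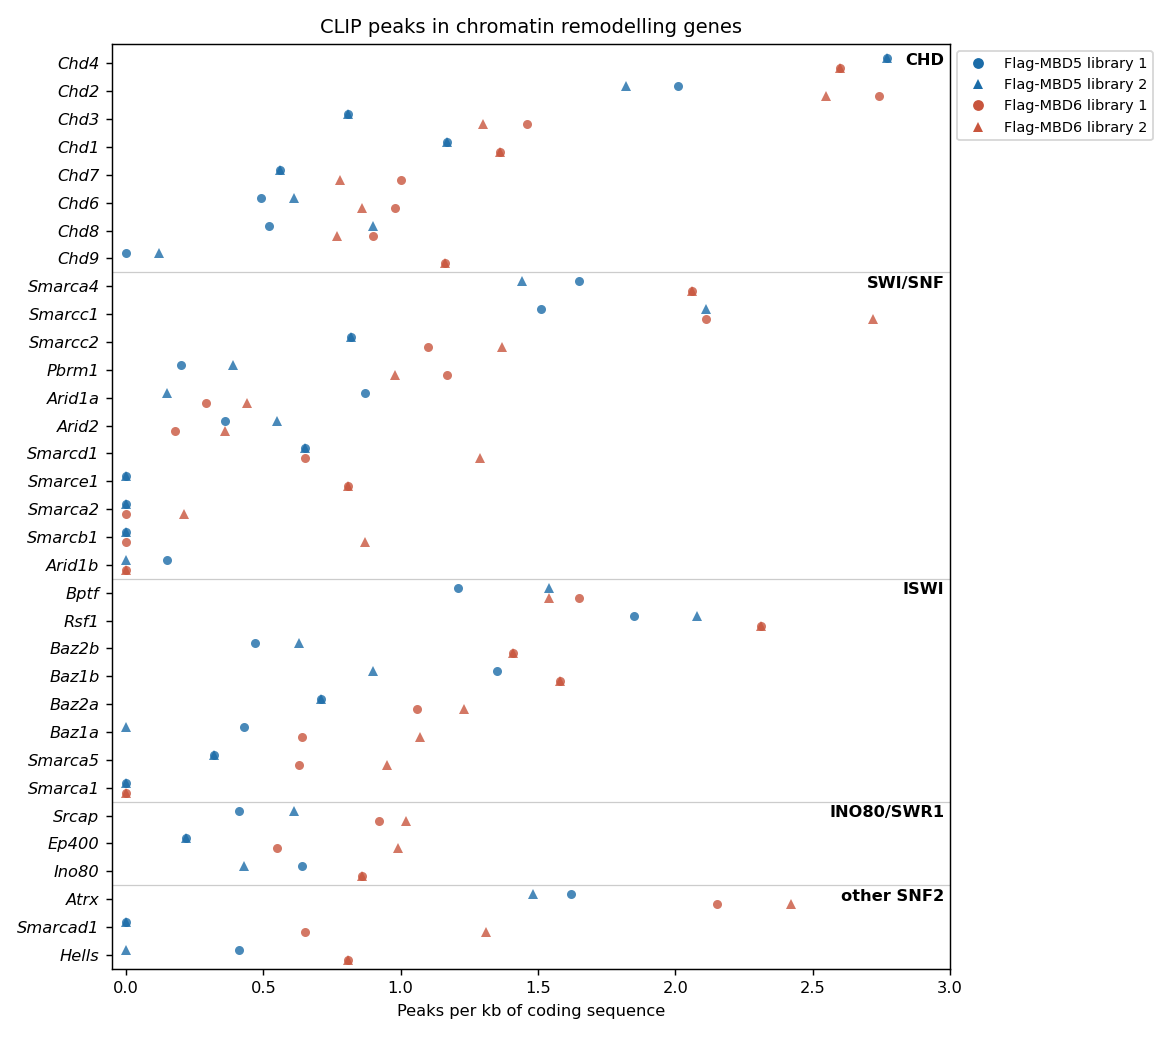
Peaks per kb of coding sequence in each of the 33 member genes, grouped by family and ordered within it by number of peaks; blue marks are the Flag-MBD5 libraries and red marks the Flag-MBD6 libraries, with circles for replicate 1 and triangles for replicate 2. Chd4 sits at 2.77 in both Flag-MBD5 libraries and 2.60 in both Flag-MBD6 libraries, while Chd9 goes from 0.00 and 0.12 in Flag-MBD5 to above 1 in both Flag-MBD6 libraries.

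The CHD family held the most peaks, 51, 55, 80 and 74 over its 8 genes, and 41 of the 96 sites found in all 4 libraries. Chd4, the ATPase of NuRD (ENSMUSG00000063870.12, chr6:125095981-125130591), had 16, 16, 15 and 15 peaks, or 2.77, 2.77, 2.60 and 2.60 per kb. It was the most densely covered member in Flag-MBD5 and, unlike most members, gained no peaks in the deeper Flag-MBD6 libraries. Chd2 had 11, 10, 15 and 14 peaks. Chd3, the paralogue of Chd4 that can take its place in NuRD, had 5, 5, 9 and 8. Its 2 Flag-MBD5 regions overlapped none of its 6 Flag-MBD6 regions, so it had peaks in every library but no site common to all 4. Chd1, whose protein reads methylated histone H3 through its chromodomains, had 6, 6, 7 and 7 peaks, and each of its 6 regions for either protein overlapped a region of the other. Chd6, Chd7 and Chd8 had 4 to 9 peaks per library. Chd7 is mutated in CHARGE syndrome, and Chd8 is a gene linked to autism. Chd9 stood out for the gap between the proteins, with 0, 1, 10 and 10 peaks, no Flag-MBD5 region and 9 Flag-MBD6 regions. Depth limits this contrast. At the same depth-scaled level, the 8 Chd9 regions without a Flag-MBD5 peak would have had 7.01 to 15.2 reads in a Flag-MBD5 library. The median Flag-MBD5 peak in member genes had 17.

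The 3 strongest CHD sites found in all 4 libraries were in Chd4. The site in exon 12 of 39, whose sequence is shown above, had a fold enrichment of 59.4, 47.7, 43.5 and 48.1 and 105, 108, 113 and 130 reads at its summit. The site in exon 4 had a fold enrichment of 42.5, 42.0, 51.6 and 33.3. The site in exon 13 (chr6:125106478-125106829) had values of 33.3, 35.9, 33 and 33.9. By fold enrichment the proteins overlapped at these sites, but by reads scaled to each protein's estimated depth all 3 were higher in Flag-MBD5, with log2 ratios of Flag-MBD6 to Flag-MBD5 of -0.91 (95% counting interval -1.18 to -0.64), -0.61 and -0.72.

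SWI/SNF genes held 27, 24, 32 and 39 peaks over 11 genes, with a Flag-MBD5 region in 7 of them and a Flag-MBD6 region in 8. Coverage differed between the subunits. Smarca4, which encodes BRG1, the ATPase of the complex in mES cells, had 8, 7, 10 and 10 peaks. Smarca2, which encodes the alternative ATPase BRM, had 0, 0, 0 and 1. Among the scaffold subunits, Smarcc1 had 5, 7, 7 and 9 peaks and Smarcc2 had 3, 3, 4 and 5. Of the subunits that distinguish BAF from PBAF, the BAF genes Arid1a and Arid1b had 6, 1, 2 and 3 peaks and 1, 0, 0 and 0 peaks, whereas the PBAF genes Pbrm1 and Arid2 had 1, 2, 6 and 5 and 2, 3, 1 and 2. Arid1a is the member on which the Flag-MBD5 replicates differed most in number of peaks. The small accessory subunits had few peaks: Smarcd1 had 1, 1, 1 and 2, Smarce1 had 0, 0, 1 and 1, and the core subunit gene Smarcb1 had 0, 0, 0 and 1. These 3 genes have coding sequences of 1155 to 1545 nt, and the other 8 are longer than 3000 nt.

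The strongest SWI/SNF sites were all in Smarcc1. The site in exon 11 of 28 (chr9:110173886-110174088) had a fold enrichment of 37.8, 28.0, 46.3 and 39.0. Sites in exon 23 (chr9:110204214-110204422) and exon 25 (chr9:110213509-110213749) had 19.2, 19.8, 42.8 and 41.4, and 25.4, 23.7, 32.9 and 31.4. At the last 2 sites both Flag-MBD6 libraries had a higher fold enrichment than both Flag-MBD5 libraries, but by depth-scaled reads, defined below, the exon 25 site was lower in Flag-MBD6 (log2 ratio -0.63). Fold enrichments are not on the same footing in libraries of unequal depth: over all sites they were higher in Flag-MBD6 by a median of 0.41 on the log2 scale.

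ISWI genes held 35, 36, 52 and 55 peaks over 8 genes. The ATPases themselves were sparsely covered. Smarca5, which encodes SNF2H, had 1, 1, 2 and 3 peaks, and Smarca1, which encodes SNF2L, had 0 in every library. The peaks lay in the large partner subunits. Bptf, the histone-reading subunit of NURF, had 11, 14, 15 and 14 peaks, and Rsf1, the partner of SNF2H in the RSF complex, had 8, 9, 10 and 10. Of the BAZ subunits, Baz1b (WSTF) had 6, 4, 7 and 7 peaks, Baz2a (TIP5, of the nucleolar NoRC complex) 4, 4, 6 and 7, Baz2b 3, 4, 9 and 9, and Baz1a (ACF1) 2, 0, 3 and 5. A processed pseudogene of Smarca5 held 1, 1, 2 and 4 peaks of its own, so the authors' alignment could place Smarca5 reads at either copy, and the Smarca5 count is uncertain.

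In Flag-MBD6 the strongest ISWI sites had a fold enrichment similar to those of Chd4. In both Flag-MBD5 libraries they were below the Chd4 site in exon 12. In exon 1 of Bptf (chr11:107131203-107131510) the fold enrichment was 43.6, 30.3, 49.8 and 55.8, with 94, 96, 180 and 164 reads at the summit. In exon 4 of Bptf (chr11:107095621-107095903) it was 31.9, 33.8, 44.0 and 44.6. In exon 7 of Baz1b (chr5:135217704-135218339) it was 32, 24.8, 49.5 and 41.8.

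The INO80 and SWR1-type genes held 9, 10, 18 and 23 peaks. Srcap, the ATPase that deposits H2A.Z, had 4, 6, 9 and 10, Ep400, the related ATPase of the TIP60 complex, had 2, 2, 5 and 9, and Ino80 had 3, 2, 4 and 4. All 3 genes had a region for each protein, but they shared only 4 sites across the 4 libraries. In Srcap the strongest of these (exon 11 of 34, chr7:127530249-127530769) had a fold enrichment of 21.1, 17.2, 45.8 and 34.5, and the 2 Ino80 sites had 19.9, 11.3, 30.8 and 19.4 and 7.98, 9.15, 23.8 and 25.7. All 29 Srcap peaks lay also within the annotated gene Gm42715 on the same strand, so the assignment to Srcap rests on the rule alone. In addition, 9 member peaks lay also in an overlapping noncoding gene, 3 of them in Ep400, 3 in Chd4, 2 in Chd2 and 1 in Srcap.

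Of the remaining SNF2 genes, Atrx carried most of the peaks. Atrx encodes the ATPase that deposits histone H3.3 with DAXX (ENSMUSG00000031229.16, chrX:105797615-105929403), and it had 12, 11, 16 and 18 peaks, 1.62, 1.48, 2.15 and 2.42 per kb. Hells, a remodeller needed for DNA methylation, had 1, 0, 2 and 2, and Smarcad1 had 0, 0, 2 and 4. The best ranked site of all 33 genes was in exon 15 of 35 of Atrx (chrX:105850958-105851268), with a fold enrichment of 42.3, 45.8, 86.0 and 62.3 and 52, 57, 130 and 129 reads at the summit. The next Atrx sites, in exon 10 (chrX:105867729-105867917) and exon 31 (chrX:105803663-105803875), had 27.9, 19.8, 46.6 and 47.1, and 19.9, 19.8, 45.9 and 44.6. At all 3 sites both Flag-MBD6 fold enrichments were above both Flag-MBD5 ones. By depth-scaled reads, defined below, their log2 ratios were 0.15, 0.21 and 0.44, each with a counting interval that held equality.

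To ask how far the proteins shared their binding regions in these transcripts, reproducible regions were overlapped on the same strand by at least 1 bp. Of the 107 Flag-MBD5 regions in member genes, 99 overlapped a Flag-MBD6 region, 92.5% (95% Wilson interval 85.9% to 96.2%, which covers counting error only). Of the 182 Flag-MBD6 regions, 96 overlapped a Flag-MBD5 region, 52.7% (45.5% to 59.9%). Over all regions of the series the shares were 90.0% and 47.7%. The asymmetry depends on the number of peaks called: with the same number of peaks taken from each library, the shares were 84.1% and 66.4%.

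Of the 107 Flag-MBD5 regions in member genes, 2 held no Flag-MBD6 peak of either library, against 154 of 4019 over all regions of the series. The region in Arid1a (chr4:133720640-133720855) had 17 and 24 reads at its summit with a fold enrichment of 3.97 and 4.81. The region in Chd3 (chr11:69359024-69359224) had 11 and 14 reads with a fold enrichment of 9.57 and 11.9. At the same depth-scaled level, a Flag-MBD6 library would have had 43.9 and 26.8 reads at these regions. The median Flag-MBD6 peak in member genes had 27 in either library. Whether Flag-MBD6 was absent from these 2 regions was not tested. In the other direction, 48 of 182 Flag-MBD6 regions in member genes held no Flag-MBD5 peak, against 2492 of 7484 over all regions of the series. The 48 lay in 22 genes: 8 in Chd9, 5 in Atrx, 4 in Baz2b, 3 each in Chd2, Ep400, Pbrm1 and Srcap, and 1 or 2 in each of the other 15. The 5 with the most reads were in Srcap (chr7:127557969-127558298, 37 and 46 reads), Chd8 (chr14:52232451-52232620, 36 and 45), Atrx (chrX:105801879-105802078, 32 and 45), Chd9 (chr8:90976929-90977131, 37 and 28) and Pbrm1 (chr14:31061644-31061821, 28 and 34). At the same depth-scaled level, a Flag-MBD5 library would have had 4.90 to 19.4 reads at these 48 regions, with a median of 8.76. The median Flag-MBD5 peak in member genes had 17 reads and the lowest 5, and 3 of the 48 regions were expected at or above that median. Local background bears on calling as well, and the regions in Srcap and Chd8 with the most reads had a fold enrichment of only 4.29 to 7.15. Whether Flag-MBD5 was absent from these regions was not tested.

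At the 96 sites with a peak in all 4 libraries, reads at the summit were scaled by each protein's estimated depth and compared. The median log2 ratio of Flag-MBD6 to Flag-MBD5 was -0.01 over member sites (95% interval of the median -0.22 to 0.10), with 47 sites higher in Flag-MBD6 and 49 higher in Flag-MBD5. Over all 3566 such sites of the series the median was -0.34. Relative to that median the member sites lay higher by 0.32, with 67 of 96 above it. At least 2-fold higher values in Flag-MBD6 were found at 3 member sites (background 0.869% of all sites), and in Flag-MBD5 at 3 (background 9.93%). These counts depend on the scaling and on single libraries: they were 8 and 1 with ratios scaled to the median of all sites, 28 and 0 with ratios of fold enrichments, and 6 in Flag-MBD5 without Flag-MBD6 replicate 1. The counting interval of the ratio lay above equal at 8 member sites (background 4.85%) and below equal at 18 (background 33.7%).

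**Figure D2:**
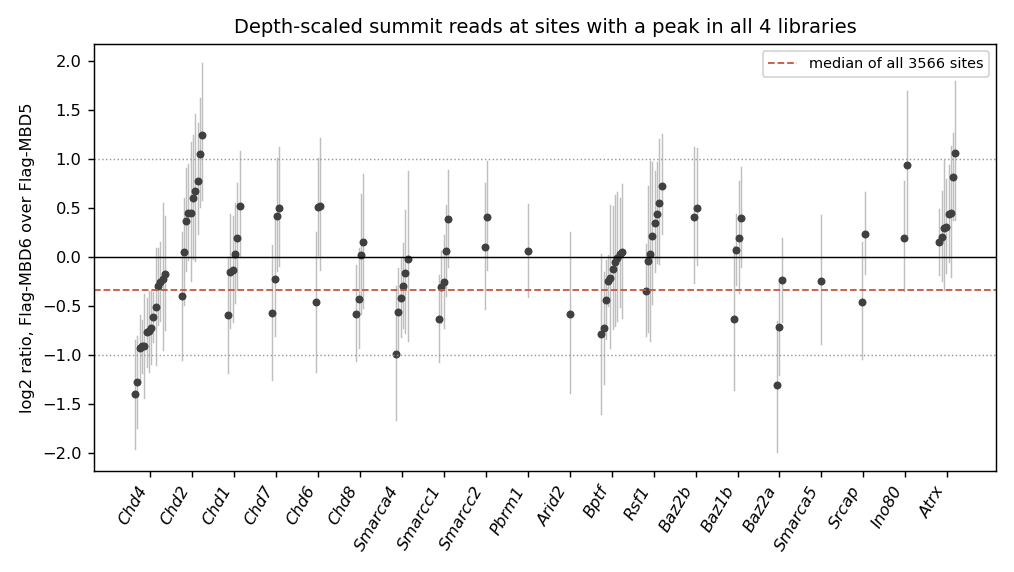
Log2 ratio of depth-scaled summit reads, Flag-MBD6 over Flag-MBD5, at each of the 96 member sites found in all 4 libraries, by gene; points are sites, grey bars their 95% counting intervals, dotted lines 2-fold and the dashed line the median of all sites (-0.34). The 14 Chd4 sites lie below 0, 4 of them above the dashed line, and the 8 Atrx sites lie above both lines.

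The direction was shared within some genes. All 14 Chd4 sites had more depth-scaled reads in Flag-MBD5, with a median log2 ratio of -0.74 (range -1.40 to -0.17). Scaled to the median of all sites this became -0.40, with 10 of 14 sites below that median and 4 above it, and with the deposited fold enrichments in place of reads it was -0.04, so the direction at single Chd4 sites depends on the scaling. All 8 Atrx sites were higher in Flag-MBD6 (median 0.37, range 0.15 to 1.06), and so were 9 of 10 Chd2 sites (median 0.52). Scaled to the median of all sites these became 0.71 and 0.86, and with the fold enrichments 1.01 and 1.24, with all 8 Atrx sites higher in Flag-MBD6 under each scaling. By depth-scaled reads, the counting interval left out equality only at the Atrx sites with log2 ratios of 0.82 and 1.06. Smarca4 had 6 of 6 sites higher in Flag-MBD5 (median -0.36), a value that was -0.02 relative to all sites and turned to 0.44 with the fold enrichments. Bptf had 8 of 10 sites higher in Flag-MBD5 (median -0.17, but 0.17 scaled to all sites), and Rsf1 had 6 of 8 higher in Flag-MBD6 (median 0.29). Sites of a gene share their transcript and are not replicates of each other.

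The 3 sites at least 2-fold higher in Flag-MBD6 were in Chd2 (chr7:73501807-73502042), with 12, 10, 48 and 64 reads and a log2 ratio of 1.25 (95% interval 0.58 to 1.98), in Atrx (chrX:105855732-105856026), with 11, 11, 53 and 45 reads and a log2 ratio of 1.06, and in Chd2 again (chr7:73507693-73507914), with 15, 19, 67 and 84 reads and a log2 ratio of 1.05. Of the 3 in the other direction, 2 are described here. They were in Baz2a (chr10:128110846-128111174), with 18, 25, 15 and 22 reads and a log2 ratio of -1.31, and in Chd4 near its start codon (chr6:125097195-125097379), with 45, 39, 33 and 41 reads and a log2 ratio of -1.28. Counting intervals of all 6 left out equality. All of these ratios rest on the same estimate of depth.
Stretches from 4 of these sites are shown with the same capitals, as sites on which the proteins differed by at least 2-fold. The Baz2a stretch starts inside its site, at the 5′ end that 2 of the libraries shared. The other Chd2 site begins in an intron.
Chd2, chr7:73502013-73502042, minus strand, higher in Flag-MBD6: taccttatcAAGtggAAGggctggtcttat
Atrx, chrX:105855997-105856026, minus strand, higher in Flag-MBD6: aatcaagtcaactctGAAtccGACtctGAT
Baz2a, chr10:128110892-128110921, plus strand, higher in Flag-MBD5: aactactcacagtacccatctgccaatcct
Chd4, chr6:125097195-125097224, plus strand, higher in Flag-MBD5: ctgctcagcgggcagtGAGGAGGAGGATat
These had 0 to 4 codons for aspartate, glutamate or lysine each, 9 of 39 in all (23.1%), and 3 of the 4 were preceded by G.

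Most binding lay in coding exons. The 5′ end of a member peak was in coding sequence for 95.6%, 96.3%, 93.1% and 91.6% of peaks in the 4 libraries, against 88.4%, 88.6%, 86.9% and 86.6% of all peaks in protein-coding genes. The lower bounds of the 95% Wilson intervals of the member shares were 90.6%, 91.7%, 88.7% and 87.2%, each above the share for protein-coding genes in the same library. These intervals cover counting error only. Many peaks share a gene or recur across the libraries, so they are not independent. Judged at the midpoint, 66.3% to 67.4% of member peaks were in coding sequence and 28.1% to 30.2% in introns, against 61.3% to 62.4% and 24.8% to 26.8% of all peaks in protein-coding genes. At the midpoint the Wilson intervals of the member shares in coding sequence held the share for protein-coding genes in every library, so the difference seen at the 5′ end was not seen there. The authors had extended reads to 150 bp without splicing, so a peak can run past the end of a short exon. Of 688 member peaks, 43 had a 5′ end outside coding sequence: 31 in introns, 8 in noncoding exons, 3 in 5′ UTRs and 1 in a 3′ UTR. Of the 31 intronic ends, 26 lay within 10 nt of a coding exon and 3 had no coding exon within 200 nt. Exons with a site had a median length of 178 nt, and the 944 coding exons of the members had a median of 145 nt.

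Sites were spread along the coding sequence. Of the 96 sites found in all 4 libraries, 88 began in coding sequence, 40 of them in the earliest of 3 equal parts, 23 in the middle part and 25 in the last. The earliest sites of Chd4, Chd6, Bptf and Chd1 began at 0.503%, 1.56%, 4.52% and 7.21% of the coding sequence. The 7 Atrx sites in coding sequence began at 33.1% of its length or later. In Chd4 the sites ran from 0.503% to 85.9% of the coding sequence.

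**Figure D3:**
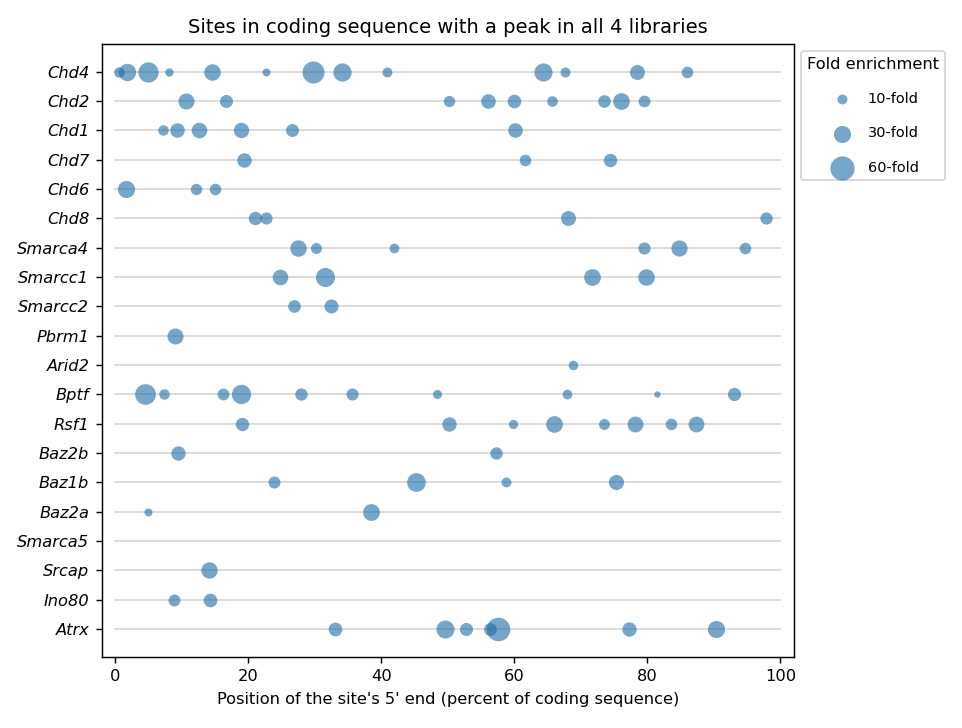
Position of the 5′ end of each of the 88 coding-sequence sites, as a percentage of the coding sequence from the start codon (0) to the stop codon (100), by gene; the area of a point is proportional to the geometric mean of the fold enrichment over the 4 libraries. Chd4 and Bptf have their largest points in the first 30% of the coding sequence, and Atrx has its largest at 57.6%.

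The bound stretches were rich in A and in codons for aspartate, glutamate and lysine. In the 30 nt from the 5′ end of member peaks, A made up 38.7%, 39.0%, 39.4% and 39.3% of bases, against 28.9% over the whole coding sequence of the members and 37.3% to 38.6% in the windows of all peaks in coding transcripts. The base before the window was G for 85.3%, 86.3%, 79.4% and 77.5% of member peaks, and for 83.3%, 82.8%, 74.0% and 73.3% of all peaks. Codons for aspartate, glutamate or lysine made up 41.7%, 40.5%, 41.7% and 40.9% of codons in member windows, 36.3% to 36.8% in those of all peaks and 21.2% in the whole coding sequence of the members. Glutamate codons made up 17.0% to 18% of member windows and 8.53% of the members' coding sequences, and aspartate codons 9.92% to 11.7% and 5.46%. The hexamer GAAGAA, searched on the transcript strand alone, was in 24.8%, 17.6%, 25.9% and 23.5% of member windows, in 20.2% to 21.3% of those of all peaks, and in 5.08% of all windows of 30 nt in the members' coding sequences. The part of RNase T1 cleavage after G in these base and codon shares was not tested. Windows of overlapping peaks from the 4 libraries hold the same sequence and are not independent.

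**Figure D4:**
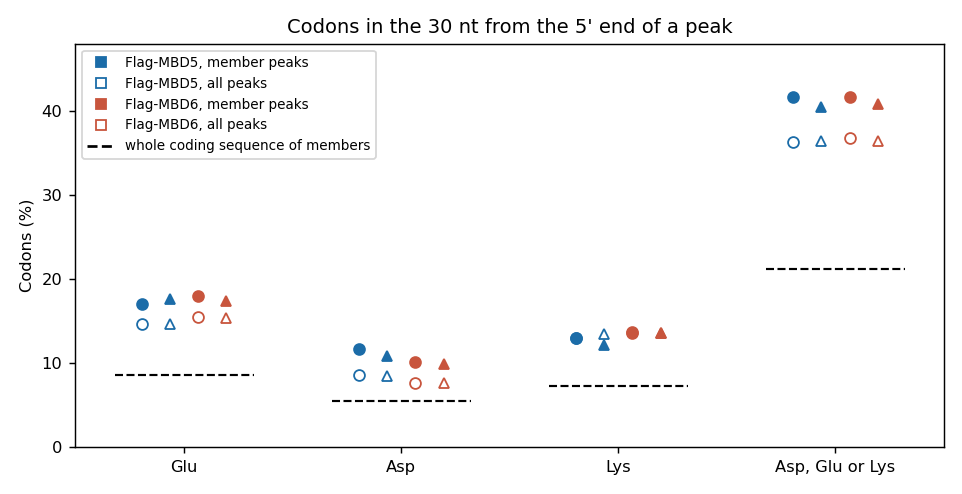
Percentage of codons for glutamate, aspartate, lysine and all 3 in the 30 nt from the 5′ end of peaks, per library; filled marks are member peaks and open marks all peaks, blue is Flag-MBD5 and red Flag-MBD6, circles are replicate 1 and triangles replicate 2, and dashed lines give the members' whole coding sequences. For all 3 residues together, member windows lie at 40.5% to 41.7%, above all peaks (36.3% to 36.8%) and above the dashed line (21.2%).

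Other subunits of the same complexes and further SNF2 genes were also examined. Of 64 such genes, 15 had a Flag-MBD5 region (background 7.81% of all protein-coding genes), 31 had a Flag-MBD6 region (background 13.8%) and 23 had no peak in any library. Of these 64, 11 were other SNF2 genes or Daxx and not on the SWI/SNF, NuRD, ISWI, INO80, SRCAP or TIP60 lists. Among the 11, 2 had a Flag-MBD5 region and 8 a Flag-MBD6 region. Coding sequences of the 64 genes had a median of 1456 nt, against 5133 nt for the members, and the lists were not compared at matched length. Of the 12 partners in NuRD, which contains Chd4, 4 had a Flag-MBD5 region and 7 a Flag-MBD6 region. Among them the deacetylase gene Hdac2 had 1, 2, 2 and 2 peaks, and the histone chaperone gene Rbbp4 had 2, 1, 2 and 2. Of 24 partners in the INO80, SRCAP and TIP60 complexes, 4 and 9 had a region. The large scaffold gene Trrap had 3, 4, 6 and 5 peaks, and 11 of the 24 had none. Daxx, the partner of Atrx in H3.3 deposition, had 2, 2, 2 and 3 peaks and a region for each protein.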

How the data were processed

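CLIP-seq peak lists of 2 Flag-MBD5 and 2 Flag-MBD6 libraries were used. Per the study's methods, the authors collapsed identical reads, removed ribosomal RNA, aligned to mm10 with bowtie (1.0.0, per the submitters' processing notes) without splicing, split reads by strand with samtools (1.16.1) and called peaks per library with MACS2 at q under 0.01. The deposited values of a peak are a score, a fold enrichment (a ratio of summit signal to local background), −log10 p and −log10 q, and the deposited summit position is another column.

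For each peak, a read number at the summit and a Poisson background rate were solved that together return its deposited fold enrichment and −log10 p (100% of peaks, largest relative error 1.0e-05). The lowest rate per strand gave the depth, an estimate from the lists and not a count of fragments. Ratio intervals are exact conditional binomial intervals and shares have Wilson intervals, both at 95%. Windows, codons and GAAGAA came from GENCODE vM21 transcripts. Up to 3 genes and 3 sites per family were named by most peaks and best mean rank, with sites past 2-fold and the 5 strongest regions of 1 protein alone. The members, the lists of 64 partner or other SNF2 genes and 26 markers, and these rules were chosen with earlier results of these data known. The sequence and values of 1 site past 2-fold are not reported here. The exact test over 2 against 2 libraries is not reported, since replicates differed by less than sampling noise. Python (3.11.15), numpy (2.4.6), scipy (1.17.1) and matplotlib (3.10.9) were used, and the calculations were tested on simulated data.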

Additional observations from a re-analysis of the deposited data

How the results depend on the processing

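Of 187 values recomputed under settings other than leaving out a library, 155 stayed within the range counted as the same (1.5 times for a count, the counting or order-statistic interval for the rest), 31 moved and 1 reversed. Some of these values could not change under their setting, such as peaks per library when regions of either library were counted. The tally therefore overstates stability. A q threshold of 0.001, a fold minimum of 4, a reciprocal overlap of 50% and assignment by the 5′ end or the summit moved no summary value. The q threshold and the fold minimum removed little, leaving 3556 and 3523 sites in all 4 libraries over the series, against 3566. When every library contributed the same number of peaks, the Flag-MBD6 density fell from 0.97 to 0.61 peaks per kb, the overlap shares became 84.1% for Flag-MBD5 and 66.4% for Flag-MBD6, and 1 site was 2-fold higher in Flag-MBD5. Counting regions found in either library gave an overlap of 60.9% for Flag-MBD6. The share of peaks in coding sequence was 67.2% and 66.9% at the midpoint and 97.8% and 98.1% at 15 nt inside the 5′ end. Scaling to the median of all sites moved the median log2 ratio to 0.32, with 8 sites past 2-fold in Flag-MBD6 and 1 in Flag-MBD5, and ratios of fold enrichments gave 0.68, with 28 and 0. At a limit of 1.5-fold, 9 and 17 sites passed. Smarca4 reversed, from -0.36 to 0.44, with the fold enrichments. With a window of 60 nt, A was 37.4% and codons for aspartate, glutamate or lysine 39.0%. The causes of these changes were not tested beyond what each setting fixes.

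Leaving out each library in turn gave an overlap of 86.7% to 97.2% for Flag-MBD5 and 47.4% to 64.8% for Flag-MBD6, 2 to 5 sites past 2-fold in Flag-MBD6 and 4 to 6 in Flag-MBD5. The count in Flag-MBD5 was 5 without Flag-MBD5 replicate 1 and 6 without Flag-MBD6 replicate 1, and the count in Flag-MBD6 was 5 without Flag-MBD5 replicate 2. Replicate numbers name the libraries only. Pairing by number in a replicate block gave a median log2 ratio of -0.01, with 3 sites past 2-fold in Flag-MBD6 and 4 in Flag-MBD5, and changed no direction. Depth limits what can be said of the 48 regions with peaks of Flag-MBD6 and none of Flag-MBD5, 3 of which were expected at or above the median reads of a member peak in a Flag-MBD5 library.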
